A study of Homo sapiens with 4 samples.

Results

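The mRNAs encoding the proteins of the small (40S) ribosomal subunit were followed across 4 RNA immunoprecipitation (RIP-seq) libraries. Genes were taken by symbol: RPS and a number with an optional A, X, L, Y1 or Y2 suffix, together with RPSA and FAU, leaving out the RPS6K kinases, pseudogenes and antisense symbols. This gave 35 of the 44715 symbols listed, of which 30 had at least 5 CPM (a gene's reads scaled to a common library total) in at least 2 libraries and entered the test, as did 9524 genes in all. All libraries came from HEK293T, an established line from human embryonic kidney into which the large T antigen of SV40 was introduced. RNA and protein complexes were precipitated from native lysates of unmodified cells with an antibody against PHGDH, the first enzyme of serine synthesis (2 libraries), or with an anti-IgG antibody as the control (2 libraries). The study describes the libraries of each antibody as biological replicates, and it asked whether PHGDH protein associates with RNA. No library of unprecipitated RNA was analysed here, so each level is a share of what a bead recovered and not a level in the cell. Less of an mRNA and more of other RNA in a library cannot be told apart.

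The small subunit binds the mRNA, holds the decoding centre and pairs codons with tRNAs. Its proteins are grouped here into those of the head, which swivels during translocation, and those of the body and platform. Most vertebrate ribosomal protein mRNAs belong to the TOP class: transcription starts at a C that is followed by an unbroken tract of pyrimidines, and the tract is the element through which LARP1 and mTORC1 signalling adjust their translation. These mRNAs are abundant in growing cells.

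The start sites in the RefSeq promoter table (GRCh38.p14, the assembly that hg38 names) show this tract. A promoter was listed for 28 of the 35 genes, and 20 of these (71.4%) had a start base C followed without a break by C or T to a length of at least 5 bases, read on the transcribed strand. The share was 71.8% of the 39 large-subunit genes with a promoter and 5.14% of the 27305 genes of all kinds. The motif CTTTC, searched on the transcribed strand from 10 bases before the start to 20 bases from it and in part overlapping the tract, was found for 12 of the 28 genes (42.9%) and for 5.29% of all genes. The sequences below run 5′ to 3′ from 20 bases before the annotated start through the first 20 bases of the transcript, with the pyrimidine tract at the start in capitals. They are the mRNAs on which the comparisons turn: RPS3, RPS21 and RPSA were low in IgG replicate 1, RPS6, RPS3A and RPS4X were high there, RPS12 had the lowest fold change, RPS18 and RPS25 were at or near 0 in every library, and RPS27L is the paralog of RPS27.
RPS3: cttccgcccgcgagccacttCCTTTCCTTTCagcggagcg
RPS21: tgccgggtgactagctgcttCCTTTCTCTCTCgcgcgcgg
RPSA: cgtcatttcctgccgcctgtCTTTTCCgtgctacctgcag
RPS6: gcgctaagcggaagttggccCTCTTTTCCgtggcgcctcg
RPS3A: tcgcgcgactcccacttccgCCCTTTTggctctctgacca
RPS12: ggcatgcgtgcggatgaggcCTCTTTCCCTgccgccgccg
RPS18: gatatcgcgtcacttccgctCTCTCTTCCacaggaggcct
RPS25: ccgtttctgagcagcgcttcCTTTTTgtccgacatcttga
RPS4X: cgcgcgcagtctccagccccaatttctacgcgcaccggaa
RPS27L: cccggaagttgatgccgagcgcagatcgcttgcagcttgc
The windows lie at chr11:75399498-75399537 on the plus strand, chr20:62387083-62387122 on the plus strand, chr3:39406700-39406739 on the plus strand, chr9:19380217-19380256 on the minus strand and chr4:151099608-151099647 on the plus strand. The others lie at chr6:132814549-132814588 on the plus strand, chr6:33272055-33272094 on the plus strand, chr11:119018324-119018363 on the minus strand, chrX:72277229-72277268 on the minus strand and chr15:63157458-63157497 on the minus strand. The tract was present for mRNAs that were high in IgG replicate 1 and for mRNAs that were low there. At the annotated starts of RPS4X and RPS27L, both highest in that library, it was absent. It was also absent at those of RPS7, RPS15, RPS26, RPS28, RPS29 and RPS4Y2, not shown above. Of these, RPS15, RPS26, RPS28 and RPS29 had their lowest level in IgG replicate 1. An annotated start need not be the start used in these cells.

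Reads assigned to genes numbered 3365837 and 1216477 in the first and second PHGDH pulldown and 3875746 and 1579430 in the first and second IgG pulldown. The small-subunit mRNAs accounted for 101446, 99338, 135728 and 158987 of these reads, so that counting error is small for all but a few of them. IgG replicate 1 stood apart: it was the deepest library, yet 61.9% of the genes tested were at 0 in it, against at most 0.168% in any other library. Mitochondrially encoded transcripts took 28.8% of the reads in anti-PHGDH replicate 1 and between 3.37% and 8.69% in the other libraries. The PHGDH mRNA was at 6550.2 and 1531 CPM in the PHGDH pulldowns and at 0 and 461 CPM in the IgG pulldowns. Among 6 transcripts expected in HEK293T, 5 were above 2.47 CPM, the value of 3 reads in anti-PHGDH replicate 2, in every library but IgG replicate 1. Of 5 blood and liver transcripts, 0 were above it in all of these libraries. HBA1 was above it in both PHGDH pulldowns (2.67 and 3.29 CPM) and APOA1 in IgG replicate 2 (3.17 CPM). Results are given with and without IgG replicate 1 where they rest on it.

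As a class, the small-subunit mRNAs took a share of reads that differed more between the replicate numbers than between the antibodies. Their share was 3.01% in the first PHGDH pulldown (3.00 to 3.03%, a 95% Wilson interval) and 8.17% in the second (8.12 to 8.21%). With IgG the first library had 3.50% (3.48 to 3.52%) and the second 10.07% (10.02 to 10.11%). With all reads counted, in both replicate numbers the share was lower with anti-PHGDH than with IgG, but the difference between replicates of the same antibody was larger than either. The smallest two-sided p that an exact permutation test can give with 2 libraries per group is 0.333, so no test of the shares was made.

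With the mitochondrial reads left out of the totals, the shares were 4.23% and 8.94% with anti-PHGDH and 3.64% and 10.42% with IgG. The order of the 2 libraries numbered 1 was thus the opposite once the mitochondrial reads were removed, while the order of the 2 libraries numbered 2 was the same. With the 10 most abundant genes of each library left out, which removes 0 and 1 small-subunit mRNAs from the PHGDH pulldowns and 2 and 3 from the IgG pulldowns, the shares were 4.18% and 8.29% with anti-PHGDH and 2.32% and 8.24% with IgG. In that setting the share was higher with anti-PHGDH in number 1, and the Wilson intervals overlapped in number 2 (8.24 to 8.34% and 8.20 to 8.29%). The direction between the antibodies thus depended on which reads were counted. The mRNAs of the large subunit took 5.72% and 13.2% with anti-PHGDH and 6.16% and 14.9% with IgG, in the same order of libraries. The ratio of large-subunit to small-subunit reads was 1.90 and 1.61 with anti-PHGDH and 1.76 and 1.48 with IgG, higher with anti-PHGDH within each number.

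**Figure D1:**
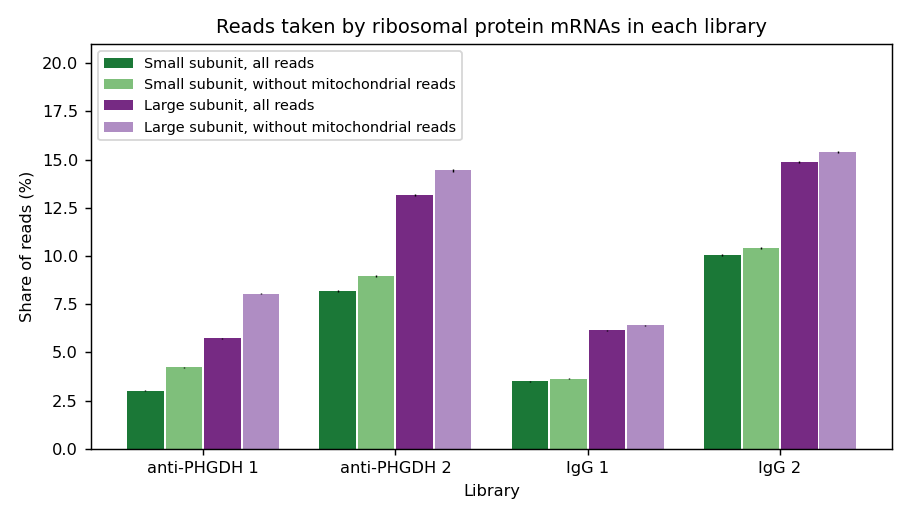
Share of the reads assigned to genes (%, vertical axis) taken by small-subunit (green) and large-subunit (purple) mRNAs in each library, with all reads or without mitochondrial reads in the total; error bars are 95% Wilson intervals. The small-subunit share is 3.01% and 3.50% in the libraries numbered 1 and 8.17% and 10.07% in those numbered 2.

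Gene by gene, the anti-PHGDH replicates gave a similar order of mRNAs at different levels. All 30 small-subunit mRNAs tested were higher in anti-PHGDH replicate 2 than in replicate 1, against 51.3% of all genes tested, and 25 were at least 2-fold higher, against 14.4%. Among 1388 abundant genes (100 CPM or more in 2 or more libraries), 32.3% were 2-fold higher, and so were 25 of the 28 small-subunit mRNAs among them. The median ratio of replicate 2 to replicate 1, on CPM + 1, was 2.92 for the small-subunit mRNAs and 1.02 for all genes tested, and 2.27 and 0.807 without the mitochondrial reads. As ratios of CPM, the largest were 19.4 for RPS29 and 11.2 for RPS21, followed by 7.39 for RPS28 and 6.96 for RPS12. For RPS29 the levels were 46.3 CPM in the first PHGDH pulldown and 898 CPM in the second.

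The IgG libraries also differed in this direction, as did most genes. Of the 30 small-subunit mRNAs, 25 were higher in IgG replicate 2 than in IgG replicate 1 (81.9% of all genes tested) and 24 were at least 2-fold higher (77.6%). The median ratio was 6.31 for the small-subunit mRNAs and 9.85 for all genes. The 5 that were higher in IgG replicate 1 were RPS4X, RPS3A, RPS6, RPS24 and RPS27L.

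Across the 30 mRNAs, log2(CPM + 1) correlated with Pearson's r = 0.93 between the anti-PHGDH replicates and r = 0.99 between the 2 libraries numbered 2. The IgG replicates had the lowest value of the 6 pairs, r = 0.77 (Spearman's rho = 0.58). These correlations are across genes that share libraries, and they describe the libraries only. The median absolute difference per mRNA was 0.36 on the log2 scale for the libraries numbered 2, against 1.54 for the pair of PHGDH pulldowns and 2.66 for the pair of IgG pulldowns.

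**Figure D2:**
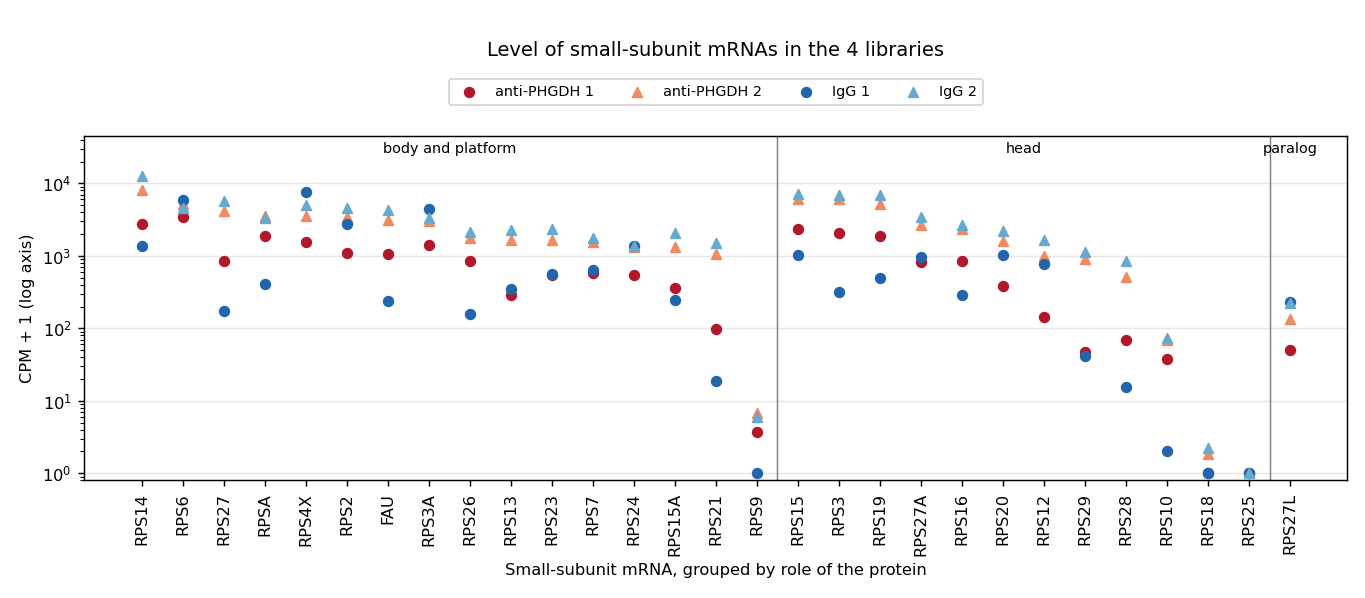
CPM + 1 (log axis) of 28 small-subunit mRNAs and the paralog RPS27L in the 4 libraries, grouped by the place of the protein in the subunit; red and orange are anti-PHGDH, blue and light blue IgG, circles replicate 1 and triangles replicate 2. The triangles of the 2 antibodies lie close together, while the IgG 1 circle lies from far below to above the others, and RPS9, RPS18 and RPS25 lie at the bottom.

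In the comparison of the antibodies over all 4 libraries, 0 of the 30 small-subunit mRNAs passed an adjusted p of 0.05 in limma in either direction (background: 0.0105% of the 9524 genes higher, which is 1 gene, and 0% lower). Without adjustment, p was under 0.05 for 0 of them in either direction, where 2.74% of all genes were higher. edgeR's quasi-likelihood test and DESeq2, both on the recovered reads, called 0 of the 30 as well, with 0 at an unadjusted p under 0.05. The limma adjusted p ran from 0.677 to 0.980. The log2 fold changes, anti-PHGDH minus IgG on log2(CPM + 1), ran from -1.56 to 2.06, a scale that understates changes of low genes, with 15 above 0 and 15 below, where 80.7% of all genes tested were above 0. Their median was 0.02, against 1.92 for all genes tested and 0.40 for the genes with at least 100 CPM in 2 libraries. The standard errors, which follow from the trend across genes, ran from 1.00 to 2.33. For 25 of the 30 mRNAs the spread between replicates on the log2 scale was larger than the fold change itself.

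A gene counts as 2-fold higher in every pair when its lower anti-PHGDH value is at least 2 times its higher IgG value on CPM + 1. No small-subunit mRNA met this (0 of 30, against 9.30% of all genes), and none was 2-fold lower in every pair (0 of 30, against 0.084%). For 0 of the 30 were both anti-PHGDH values above both IgG values, against 38.3% of all genes. The shares of genes counted as higher include those at 0 in IgG replicate 1, which had only IgG replicate 2 to exceed. These were 61.9% of all genes tested and 1 of the 30. The shares counted as higher were not computed for the genes above 0 there, so the 2 groups are not alike in this. For 4 of the 30, RPS4X, RPS3A, RPS24 and RPS27L, both anti-PHGDH values were below both IgG values, against 6.16% of all genes. This was counted on the deposited CPM only, and not without the mitochondrial reads. A gene at 0 in IgG replicate 1 cannot be lower in both anti-PHGDH libraries. Among the 3629 genes above 0 there the share was 16.2%, near the 4 of 29 small-subunit mRNAs (13.8%).

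The fold changes depended on which library was left out. Without IgG replicate 1, all 30 small-subunit mRNAs had a log2 fold change below 0, from -2.47 to -0.13 with a median of -1.12, where 42.0% of all genes were below 0 and the median over all genes was 0.14. Without IgG replicate 2, 22 of the 30 were above 0 with a median of 1.55, and 11 (36.7%) passed the threshold in limma as higher, where 74.9% of all genes tested did. Without anti-PHGDH replicate 1 the median was 0.90, with 24 above 0, and without anti-PHGDH replicate 2 it was -0.76, with 22 below 0 (17.8% and 21.1% of all genes were below 0 in these fits). In these fits the lone library of a group is assumed to vary like the others. In each of the 4 fits the small-subunit median lay below that of all genes.

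**Figure D3:**
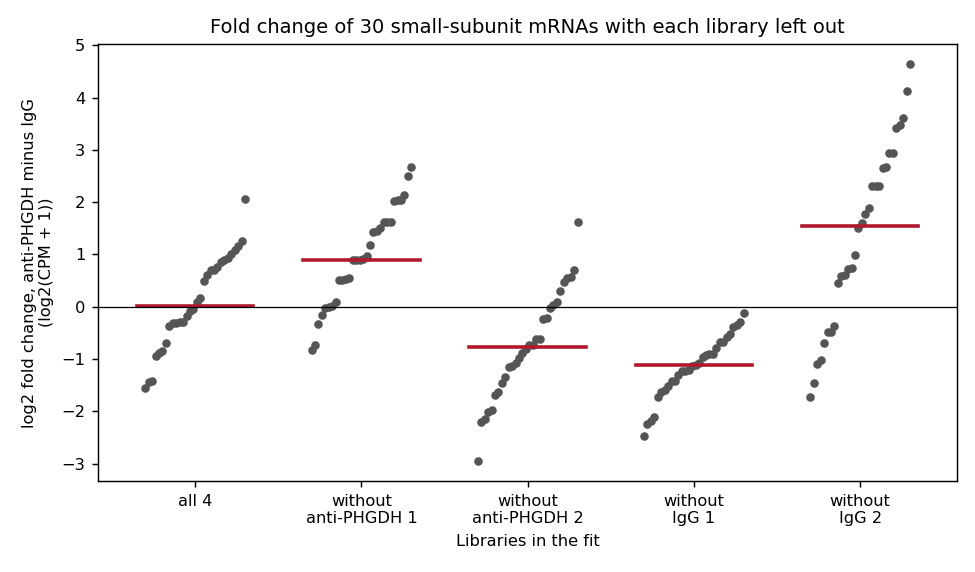
Log2 fold change, anti-PHGDH minus IgG on log2(CPM + 1), of the 30 small-subunit mRNAs (points, sorted) in the fit of all 4 libraries and with each library left out; red lines are medians. The median is 0.02 with all libraries, and every point lies below 0 without IgG 1.

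Within replicate number 2, where both libraries detected nearly every gene tested, 26 of the 30 small-subunit mRNAs were lower with anti-PHGDH than with IgG, against 36.9% of all genes tested, and 4 were higher, against 63.1%. The share lower was 52.0% among the genes with at least 100 CPM in 2 libraries (25 of 28 small-subunit mRNAs) and 45.1% among the genes above 0 in IgG replicate 1. The ratios of CPM + 1 ran from 0.597 to 1.17 with a median of 0.779, against 1.13 for all genes tested, 0.988 for the genes with at least 100 CPM and 0.867 for 47 large-subunit mRNAs. Without mitochondrial reads the median was 0.824 and 24 of the 30 were lower. None differed by 2-fold in either direction, where 12.5% of all genes were 2-fold higher and 1.97% 2-fold lower. For 24 of the 30 the exact (Clopper-Pearson) 95% interval of the ratio lay below 1, for 3 above 1, and for 3 it spanned 1. The intervals were computed for these mRNAs only, so the counts have no share over all genes beside them. Those intervals cover counting error alone, since there is 1 library per antibody in this comparison. PCR copies may make them too narrow.

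Within replicate number 1 the same mRNAs spread widely: 16 were higher with anti-PHGDH and 14 lower, against 80.6% and 19.4% of all genes. The ratios of CPM + 1 ran from 0.187 to 18.3 with a median of 1.31, where the median of all genes was 12.3. Of the 30, 13 were at least 2-fold higher (76.6% of all genes) and 7 at least 2-fold lower (15.3% of all genes). Of the 30, 29 were above 0 in IgG replicate 1, where 38.1% of all genes tested and 79.5% of those with at least 100 CPM were. Across the 30 mRNAs the log2 difference within number 1 and that within number 2 correlated with r = 0.18 (Spearman's rho = 0.16), a description across genes.

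**Figure D4:**
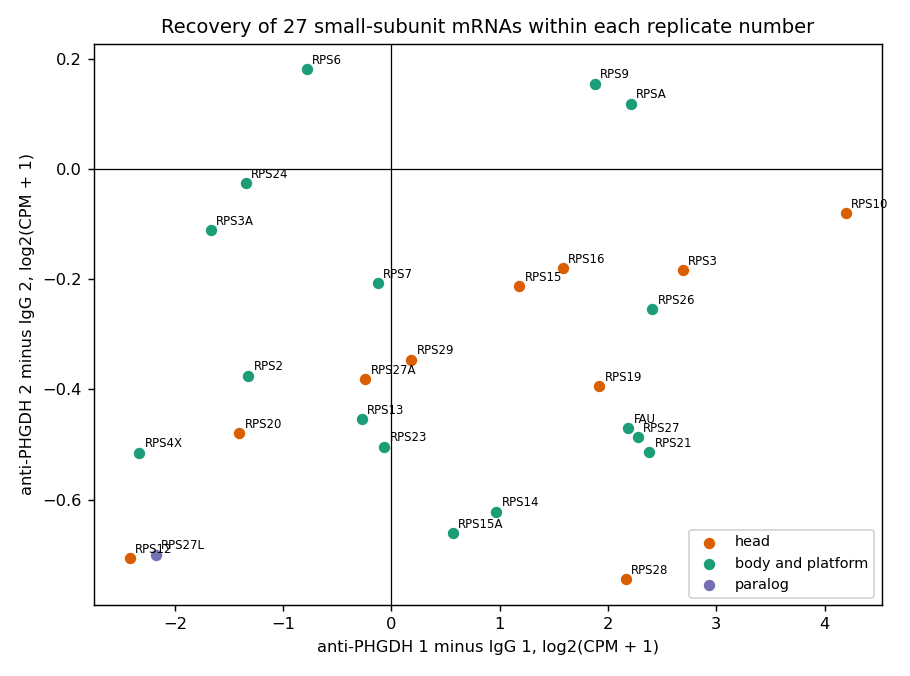
Difference in log2(CPM + 1) between anti-PHGDH and IgG within replicate number 1 (horizontal axis) and number 2 (vertical axis, a narrower scale) for 27 small-subunit mRNAs, coloured by the place of the protein in the subunit. RPS6, RPS9 and RPSA lie above 0 on the vertical axis, and 12 of the mRNAs plotted lie left of 0 on the horizontal axis.

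Proteins of the head were encoded by 14 of the genes, of which 11 were tested. Their median log2 fold change was 0.61, with 7 above 0, and 0 of the 11 passed the threshold in limma. Within number 2 all 11 were lower with anti-PHGDH, at a median ratio of 0.787, and all 11 were higher in IgG replicate 2 than in IgG replicate 1, at a median ratio of 9.30. For the 18 mRNAs of the body and platform, all tested, the median log2 fold change was -0.11, with 8 above 0, and 0 of the 18 passed the threshold. Within number 2, 14 of these 18 were lower with anti-PHGDH (median ratio 0.802), and 14 were higher in IgG replicate 2 than in IgG replicate 1 (median ratio 5.07). Of all genes tested, 80.7% had a log2 fold change above 0, and 0.0105% passed the threshold as higher and 0% as lower. Within number 2, 36.9% of all genes were lower with anti-PHGDH, and 81.9% were higher in IgG replicate 2 than in IgG replicate 1. Without mitochondrial reads, 10 of the 11 head mRNAs and 13 of the 18 body and platform mRNAs were lower within number 2. The difference between head and body was not tested.

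RPS3 lines the mRNA entry channel and was the head mRNA with the second highest fold change. Its level was 2057 and 6104 CPM in the PHGDH pulldowns, replicate 1 first (mean 4080.4 ± 2861 CPM, SD, n = 2), and 317 and 6931 CPM in the IgG pulldowns (mean 3624 ± 4677 CPM, SD, n = 2). IgG replicate 1 was far below the other libraries, and the groups overlapped. Its fold change was 1.25 on the log2 scale (SE 1.08; limma adjusted p = 0.677), or -0.97 without IgG replicate 1. Within number 1 it was 6.48 times as abundant with anti-PHGDH, and within number 2 it was 0.881 times as abundant (counting interval 0.855 to 0.907).

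RPS10, a head protein that is ubiquitinated when ribosomes collide, had the highest fold change of the 30 but rested on few reads. It was at 36.2 and 68.2 CPM in the PHGDH pulldowns and at 1.03 and 72.2 CPM in the IgG pulldowns, from 122, 83, 4 and 114 reads. Its fold change was 2.06 on the log2 scale (SE 2.33; limma adjusted p = 0.677), or -0.53 without IgG replicate 1. The RPS10 pseudogenes listed, 30 symbols, summed to 14.9, 45.2, 13.9 and 95.6 CPM in the same order of libraries, 95.4% of the summed level of RPS10. RPS10 also overlaps the read-through gene RPS10-NUDT3, which was at 0 in all 4 libraries. How reads that match several genes were counted is not given in the sources used here, and its level is therefore uncertain.

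RPS12 is a head protein at the beak of the subunit, and its mRNA had the lowest fold change. It was at 144 and 999 CPM in the PHGDH pulldowns (mean 571 ± 605 CPM, SD, n = 2), as against 770.4 and 1630.3 CPM in the IgG pulldowns (mean 1200.4 ± 608 CPM, SD, n = 2). It was lower with anti-PHGDH within both numbers, at ratios of 0.186 and 0.613, although anti-PHGDH replicate 2 was above IgG replicate 1. The fold change was -1.56 on the log2 scale (SE 1.26; limma adjusted p = 0.677), or -2.10 without IgG replicate 1. It was -0.17 without anti-PHGDH replicate 1 and -2.96 without anti-PHGDH replicate 2. RPS20, another collision-marked head protein, followed the same pattern, at 382 and 1589 CPM in the PHGDH pulldowns and 1013 and 2217 CPM in the IgG pulldowns.

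RPS28, whose protein lies at the mRNA exit channel, had the lowest ratio within number 2. It was at 68.3 and 505 CPM in the PHGDH pulldowns and at 14.4 and 847 CPM in the IgG pulldowns. Within number 2 the ratio was 0.596 (counting interval 0.541 to 0.657), while within number 1 it was 4.73. The fold change was 0.71 on the log2 scale (SE 1.60; limma adjusted p = 0.761), or -2.18 without IgG replicate 1. Its 4 listed pseudogenes summed to 12.4% of its own level.

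The remaining head mRNAs divided by their level in IgG replicate 1. RPS15, RPS16 and RPS19 were lower there than in any other library. RPS19, the gene most often mutated in Diamond-Blackfan anaemia, was at 1897 and 5271 CPM in the PHGDH pulldowns and at 501 and 6928 CPM in the IgG pulldowns. RPS15, whose tail reaches toward the decoding site, was at 2345 and 6188 CPM in the PHGDH pulldowns and at 1033 and 7172 CPM in the IgG pulldowns. RPS16, whose tail touches the P-site tRNA, was at 857 and 2346 CPM in the PHGDH pulldowns and 285 and 2659 CPM in the IgG pulldowns. RPS27A, which encodes ubiquitin fused to a ribosomal protein, was at 814 and 2643 CPM in the PHGDH pulldowns and 961 and 3444 CPM in the IgG pulldowns. RPS29, a zinc-binding protein, was at 40.8 and 1142 CPM in the IgG pulldowns, so that both of its libraries numbered 1 were low. In each of these the groups overlapped, and the limma adjusted p was at least 0.677.

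Among the mRNAs of the body and platform, RPS4X stood lowest by fold change. RPS4X encodes the X-linked form of an rRNA-binding body protein that has Y-linked homologs. It was at 1538 and 3534 CPM in the PHGDH pulldowns (mean 2536 ± 1411 CPM, SD, n = 2), as against 7729 and 5049.9 CPM in the IgG pulldowns (mean 6389.6 ± 1895 CPM, SD, n = 2). Both IgG libraries were above both anti-PHGDH libraries. The fold change was -1.42 on the log2 scale (SE 1.02; limma adjusted p = 0.677), or -1.11 without IgG replicate 1 and -0.82 without anti-PHGDH replicate 1. Within number 1 the ratio was 0.199 and within number 2 it was 0.700 (counting interval 0.674 to 0.726). RPS4X had the smallest unadjusted p of the 30.

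RPS3A and RPS24 shared this order of libraries. RPS3A, which lies on the platform, was at 1399.7 and 3066 CPM in the PHGDH pulldowns and at 4454 and 3311 CPM in the IgG pulldowns (log2 fold change -0.89, SE 1.06; limma adjusted p = 0.677). Its ratio within number 2 was 0.926 (counting interval 0.888 to 0.966), so that most of the difference lay within number 1. RPS24 was at 537 and 1338 CPM in the PHGDH pulldowns and at 1366 and 1362 CPM in the IgG pulldowns (mean 1364 ± 2.68 CPM, SD, n = 2), and its ratio within number 2 was 0.983 (counting interval 0.921 to 1.05). The separation of the groups for RPS24 therefore rested mainly on anti-PHGDH replicate 1.

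RPS6, the phosphorylated substrate of the S6 kinases, varied least between replicates, with a spread of 0.35 on the log2 scale. It was at 3401 and 5208 CPM in the PHGDH pulldowns (mean 4304 ± 1278 CPM, SD, n = 2), as against 5848 and 4594 CPM in the IgG pulldowns (mean 5221 ± 886 CPM, SD, n = 2). The groups overlapped, and the fold change was -0.30 on the log2 scale (SE 1.00; limma adjusted p = 0.840). Within number 2 it was 1.13 times as abundant with anti-PHGDH (counting interval 1.10 to 1.17), and within number 1 it was 0.582 times as abundant. The direction therefore differed between the replicate numbers.

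RPSA also had a counting interval above 1 within number 2 (1.04 to 1.13). RPSA, a platform protein first described as the laminin receptor precursor, was at 1904 and 3605 CPM in the PHGDH pulldowns (mean 2755 ± 1203 CPM, SD, n = 2), as against 411 and 3320.2 CPM in the IgG pulldowns (mean 1866 ± 2057 CPM, SD, n = 2). It was higher with anti-PHGDH within both numbers, at ratios of 4.63 and 1.09. The fold change was 1.16 on the log2 scale (SE 1.12; limma adjusted p = 0.677), or -0.34 without IgG replicate 1.

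RPS14, the gene haploinsufficient in the 5q- syndrome, had the highest mean CPM of the class, a value that is not per length. It was at 2709.6 and 8176 CPM in the PHGDH pulldowns (mean 5443 ± 3865 CPM, SD, n = 2), as against 1382 and 12582 CPM in the IgG pulldowns (mean 6982 ± 7919.6 CPM, SD, n = 2). The IgG libraries held both the lowest and the highest value. The fold change was 0.17 on the log2 scale (SE 1.01; limma adjusted p = 0.909), or -1.42 without IgG replicate 1. The ratio was 1.96 within number 1 and 0.650 within number 2.

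A further group of body mRNAs was lower in IgG replicate 1 than in every other library. FAU, which encodes a ribosomal protein fused to a ubiquitin-like protein, was at 1073 and 3079 CPM in the PHGDH pulldowns and at 235 and 4267 CPM in the IgG pulldowns. RPS27, a zinc-finger protein, was at 852 and 4118 CPM in the PHGDH pulldowns and at 175 and 5769 CPM in the IgG pulldowns. RPS26, which contacts the mRNA upstream of the start codon, was at 843 and 1769 CPM in the PHGDH pulldowns and at 158 and 2111 CPM in the IgG pulldowns. RPS21 was at 95.7 and 1068 CPM in the PHGDH pulldowns and at 17.5 and 1525 CPM in the IgG pulldowns, the widest spread between replicates of the 30 (3.62 on the log2 scale). RPS15A followed this order at 359 and 1311 CPM in the PHGDH pulldowns and 242 and 2074 CPM in the IgG pulldowns. Without IgG replicate 1 the log2 fold changes of these mRNAs were -1.23, -1.62, -0.79, -2.25 and -1.59.

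RPS7, RPS13 and RPS23 differed little between the 2 libraries numbered 1, with ratios from 0.827 to 0.955. RPS7 was at 579 and 632 CPM in anti-PHGDH and IgG replicates 1, RPS23 at 544 and 569.7 CPM and RPS13 at 284 and 344 CPM. Their ratios within number 2 were 0.866, 0.705 and 0.730. RPS23, a protein of the decoding centre, was at 1638 and 2323 CPM in the libraries numbered 2. RPS2, at the mRNA entry channel, was at 1088 and 3487 CPM in the PHGDH pulldowns and at 2727 and 4524 CPM in the IgG pulldowns, lower with anti-PHGDH within both numbers (ratios 0.399 and 0.771). Its 43 listed pseudogenes summed to 7.97% of its level, and those of RPS14 to 4.92%.

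The paralog RPS27L, a p53-inducible relative of RPS27 whose order of libraries was unlike that of RPS27, was lowest in anti-PHGDH replicate 1. It was at 49.9 and 136 CPM in the PHGDH pulldowns (mean 92.8 ± 60.6 CPM, SD, n = 2), as against 229 and 221 CPM in the IgG pulldowns (mean 225 ± 5.76 CPM, SD, n = 2). Both IgG libraries were above both anti-PHGDH libraries and close to each other. Its fold change was -1.44 on the log2 scale (SE 1.62; limma adjusted p = 0.677), or -1.41 without IgG replicate 1, where RPS27 itself had -1.62. It was -0.73 without anti-PHGDH replicate 1. The ratio within number 2 was 0.614 (counting interval 0.507 to 0.741), and within number 1 it was 0.218. The Y-linked paralogs RPS4Y1 and RPS4Y2 were listed at 0 in the 4 libraries.

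The mRNAs of RPS25, RPS18 and RPS9 were at or near 0 in every library, although each encodes a core component of the subunit. RPS25, a head protein needed by several viral internal ribosome entry sites, was at 0 in all 4 libraries, which allows up to 0.891, 2.47, 0.774 and 1.90 CPM. RPS18, which lies beside the P-site tRNA, had 0 and 1 reads in the PHGDH pulldowns and 0 and 2 in the IgG pulldowns. RPS9, in the body near the mRNA entry channel, had 9, 7, 0 and 8 reads in this order of libraries and passed the filter, with 2.67 and 5.75 CPM in the PHGDH pulldowns and 0 and 5.07 CPM in the IgG pulldowns. Its log2 fold change of 1.02 (SE 1.34; limma adjusted p = 0.677) rests on these reads and was -0.28 without IgG replicate 1, and its ratio within number 2 was 1.14 with a counting interval of 0.351 to 3.59.

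The levels listed beside these genes were examined after the values had been seen. Of the 10 protein-coding genes nearest to RPS18 on chromosome 6 (5 on each side in RefSeq order), 9 were at 0 in all 4 libraries, among them VPS52, WDR46 and PFDN6, subunits of general cellular machineries. For RPS9 on chromosome 19 it was 6 of 10, and for RPS25 on chromosome 11 it was 5 of 10. Over the 30 mRNAs tested the number ran from 0 to 6 with a median of 2, and 29.3% of 19271 protein-coding genes listed were at 0 in all 4 libraries. Pseudogenes of RPS18 summed to 5.35, 16.4, 1.81 and 16.5 CPM, more than RPS18 itself, and those of RPS25 to 3.56, 16.4, 1.55 and 19.6 CPM. The levels of these mRNAs are not taken as levels of the transcripts, and the part that read assignment had in them was not tested. Over the class, the 370 pseudogene symbols listed summed to between 1.09% and 1.56% of the level of the parent genes.

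Other genes of the small-subunit pathway were taken from a list of 41 genes, the assembly factors and the ribosome-bound scaffold RACK1, of which 38 were tested. In limma 0 of the 38 passed the threshold in either direction (0.0105% of all genes higher, 0% lower). Their median log2 fold change was 1.14, between those of the small-subunit mRNAs (0.02) and all genes (1.92). Of the 38, 16 (42.1%) were at 0 in IgG replicate 1, where 1 of the 30 small-subunit mRNAs and 61.9% of all genes tested were. Within number 2, 17 of the 38 were lower with anti-PHGDH, at a median ratio of 1.02. This was 26 of 30 for the small-subunit mRNAs and 36.9% of all genes tested. RACK1, which binds the head of the subunit, was at 3533 and 4958 CPM in the PHGDH pulldowns and at 1670.1 and 4994 CPM in the IgG pulldowns. The mRNAs of the box C/D snoRNP proteins NOP58 and NOP56 were at 1189 and 448 CPM in IgG replicate 1, the highest of their 4 values. That of SNU13, another such protein, was at 585 CPM there and higher in IgG replicate 2, at 733 CPM. The difference between the assembly factors and the ribosomal protein mRNAs was not tested.

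The mRNAs of the large subunit are the nearest class by function. Of 50 listed, 47 were tested. In limma 0 of the 47 passed the threshold (0.0105% of all genes higher, 0% lower), and their median log2 fold change was 0.23. Within number 2, 34 of the 47 were lower with anti-PHGDH (median ratio 0.867), against 36.9% of all genes tested. In anti-PHGDH replicate 2 the 47 were at a median of 3.01 times their level in replicate 1, against 1.02 times for all genes. Of the reference transcripts ACTB and GAPDH, ACTB was at 1589 and 1596 CPM in the PHGDH pulldowns and 1189.96 and 1575 CPM in the IgG pulldowns, and GAPDH at 1974 and 3029 CPM and at 307 and 3489 CPM. GAPDH, like RPS3, was far lower in IgG replicate 1 than elsewhere.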

How the data were processed

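RNA of HEK293T lysates was measured after native immunoprecipitation in 4 libraries. Per the submitters' processing notes, reads were aligned with STAR 2.5.4b to hg38 and counted with featureCounts; the annotation, the use of strand and the handling of multi-mapped or duplicate reads are not given in the sources used here. The authors deposited CPM values per gene symbol, to 3 decimals. From them whole reads were recovered: between 99.98% and 100% of the values above 0 were whole within 0.0005 CPM, and none of the 7 exceptions was a small-subunit gene. 1 read is worth 0.297 and 0.822 CPM in the anti-PHGDH and 0.258 and 0.633 CPM in the IgG libraries.

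Each gene was fitted as log2(CPM + 1) by limma 3.58.1 in R 4.3.3 (two-sided, variance trend on, 9524 genes), with Benjamini-Hochberg adjustment over all of them. edgeR 4.0.16 and DESeq2 1.42.0 on the recovered reads were alternatives. The procedure was tested on simulated data in which no library lacked reads for most genes and replicates varied little. That test therefore does not show how many changes could be found in these 4 libraries. Named genes were the 3 highest and 3 lowest by fold change and by the ratio within number 2, the 3 smallest p and the 3 highest means; the other genes are given by their levels. The genes and lists were chosen with earlier results of these data known. Of the 35 genes, all 35 matched a RefSeq symbol. Counts and medians cover all genes of the class, and individual values of 4 of them are not reported here.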

Additional observations from a re-analysis of the deposited data

How the results depend on the processing

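With 2 libraries per group and IgG replicate 1 at 0 for most genes, the precision for single genes was low. The count of small-subunit mRNAs past the threshold as higher was 0 in limma and in each alternative except without IgG replicate 2, so that leaving out 1 library gave from 0 to 11. As lower it was 0 in all alternatives, including edgeR, DESeq2 and the replicate block. In the fits of all 4 libraries no gene of any kind passed as lower, so this was not particular to the small-subunit mRNAs. Whether the replicate numbers form pairs could not be decided with 2 libraries per group. The replicate differences of the 2 antibodies correlated at 0.0058 across all genes tested and at 0.46 across the 30 small-subunit mRNAs. The first value cannot decide it, because IgG replicate 1 lacked reads for most genes. Ratios within a replicate number therefore compare 2 libraries that may not be matched. With the replicate block limma called 0 of the 30 in either direction, and 4 genes higher over all genes. At an unadjusted p under 0.05 in limma, 1 small-subunit mRNA was lower with the block. In other limma fits of all 4 libraries it was 3 after centring, 1 after quantile normalization and 1 without the filter. These unadjusted counts have no share over all genes beside them.

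The median log2 fold change (0.02) was -2.48 after centring on library medians, where the median of all genes was -0.57, and ran from -1.12 to 1.55 without 1 library. After quantile normalization it was 0.41, above the -0.050 of all genes. In every other alternative it lay below the median of all genes. Small-subunit mRNAs 2-fold higher in every pair ran from 0 to 13 and 2-fold lower from 0 to 7 without 1 library. The 13 higher were without IgG replicate 2, where 7206 of the 9524 genes were higher, and the 7 lower were without anti-PHGDH replicate 2, where 362 genes were lower. The number lower was 2 after centring (157 of all genes) and 1 at 1.5-fold (70 of all genes). The share of reads without mitochondrial genes was 4.23%, 8.94%, 3.64% and 10.42% in anti-PHGDH replicates 1 and 2 and IgG replicates 1 and 2. Without the 10 most abundant genes of each library it was 4.18%, 8.29%, 2.32% and 8.24%, and without the paralogs it was 3.48% in IgG replicate 1.

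The sign turned for RPS14 with TMM factors (-0.091), in edgeR (-0.55) and once a replicate block was added to edgeR (-0.091). After centring on medians the signs turned for RPS10 (-0.44), RPS3 (-1.24), RPSA (-1.33), RPS14 (-2.32), RPS9 (-1.48) and RPS28 (-1.79), and after quantile normalization for RPS10 (-0.395) and RPS9 (-0.80). They also turned in edgeR for RPS3 (-0.0091) and RPS28 (-0.77), and in DESeq2 for RPS14 (-0.36) and RPS28 (-0.61). Centring moves every fold change by the same constant; the other causes were not tested. Without 1 library the fold change ran from -0.53 to 4.64 for RPS10, from -1.42 to 1.77 for RPS14, from -2.18 to 3.60 for RPS28, from -0.97 to 3.48 for RPS3, from -0.61 to 0.0068 for RPS6, from -0.28 to 2.32 for RPS9 and from -0.34 to 2.67 for RPSA. RPS12, RPS27L and RPS4X stayed below 0 in every alternative run, with ranges without 1 library of -2.96 to -0.17, -2.15 to -0.73 and -2.02 to -0.82. The values of RPS9, RPS10, RPS18 and RPS25 rested on at most 122 reads in a library, and the cause of these low counts was not tested.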
